A study of Mus musculus with 13 samples.

Results

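The 10 genes of vessel-wall identity and leukocyte adhesion followed here in whole mouse liver were Cd34, Vwf, Plvap, Pecam1, Cdh5, Emcn, Selp, Sele, Vcam1 and Icam1. They were chosen by name, with earlier results of these data known. Each matched 1 row of the deposited count table, and they make up 10 of its 22048 genes. The 13 livers were 6 controls that kept their hepatic stellate cells (3 male, 3 female), 4 livers depleted of hepatic stellate cells (1 male, 3 female) and 3 livers with stellate cells kept, taken 72 h after partial hepatectomy (2 male, 1 female). Stellate cells store vitamin A and wrap the sinusoids as pericytes. In a partial hepatectomy some lobes are cut away and the rest grows back. Strain, age and the means of depletion are not given in the sources used here. The labels do not say that the livers of a group came from separate animals, so p-values measure the spread between these samples.

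Liver sinusoids are lined by fenestrated endothelial cells without a continuous basement membrane. In chronic injury these cells can lose their fenestrae and take on features of ordinary capillaries, a process called capillarisation, and CD34, von Willebrand factor and surface PECAM1 are its usual markers. Leukocytes leave the blood in steps. P-selectin and E-selectin (Selp, Sele) catch rolling cells through glycoproteins such as PSGL-1, and VCAM1 and ICAM1 then hold them through the alpha4 and beta2 integrins. VE-cadherin (Cdh5) and PECAM1 form the junctions that they cross. Several of the 10 genes are not confined to endothelium. Kupffer cells carry VCAM1, leukocytes and platelets carry PECAM1, platelets and megakaryocytes store P-selectin and von Willebrand factor, and ICAM1 is found on leukocytes and hepatocytes as well.

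Promoter sequence from RefSeq (GRCm38.p6) was found for 5 of the 10 genes, Sele, Selp, Cd34, Emcn and Icam1. The 250 bases before the start of the 3 adhesion genes among them are shown, since inflammatory cytokines induce these genes through NF-kB in endothelium. All 3 lie on the plus strand, Icam1 at chr9:21015690-21015939, Sele at chr1:164047984-164048233 and Selp at chr1:164115014-164115263. Capitals mark matches to GGANNTTCC, a short NF-kB-like form, and to TATAAA, both looked for after the sequences had been read.
Icam1: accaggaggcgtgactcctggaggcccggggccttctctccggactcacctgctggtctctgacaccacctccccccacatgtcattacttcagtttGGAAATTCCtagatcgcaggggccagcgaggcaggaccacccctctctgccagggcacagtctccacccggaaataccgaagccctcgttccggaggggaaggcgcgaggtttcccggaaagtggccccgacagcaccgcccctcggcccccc
Sele: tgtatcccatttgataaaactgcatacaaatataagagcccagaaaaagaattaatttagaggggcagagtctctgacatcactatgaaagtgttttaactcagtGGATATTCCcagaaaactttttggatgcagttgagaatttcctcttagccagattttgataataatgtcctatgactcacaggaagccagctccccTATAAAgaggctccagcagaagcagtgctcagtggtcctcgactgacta
Selp: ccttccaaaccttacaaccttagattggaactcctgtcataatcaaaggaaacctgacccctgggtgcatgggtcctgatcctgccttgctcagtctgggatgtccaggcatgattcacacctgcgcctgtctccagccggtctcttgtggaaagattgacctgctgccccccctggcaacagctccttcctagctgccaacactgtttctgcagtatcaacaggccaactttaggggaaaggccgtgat

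GGANNTTCC occurred 153 to 145 bases before the start of Icam1 and 145 to 137 bases before that of Sele. On either strand, 3.59% of the 32851 promoters in the table held this form within the same 250 bases. TATAAA stood 49 to 44 bases before the start of Sele and was held by 12.4% of promoters. The longer NF-kB consensus, the ETS forms CCGGAAGT and ACAGGAAGT and the GATA form AGATAA, held by 7.25%, 2.88%, 0.794% and 9.99% of promoters, had no match in the 5 promoters. The Icam1 match reads as GGANNTTCC on both strands at the same bases, and matches of different motifs did not overlap.

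Libraries held 35360991 to 51008737 counts, so that 3 counts corresponded to 0.0588 to 0.0848 CPM, the count scaled to a common library size. CPM below are scaled with TMM factors, which even out differences in RNA composition. Some libraries stood apart before any comparison. Summed CPM of 19 pan-endothelial genes (such as Tie1, Kdr and Egfl7, none of them among the 10) was 131 in control replicate 6, against 410 to 618 in the other controls. It was 147 in hepatectomised replicate 2, against 291 and 393 in the other 2 hepatectomised livers, and 296 in depleted replicate 4, against 494 to 645 in the other 3. The sum of 6 Kupffer cell genes was also the lowest of its group in control replicate 6 (52.2 CPM) and hepatectomised replicate 2 (58.3 CPM), but the highest of its group in depleted replicate 4 (1288 CPM). Control replicate 6 and depleted replicate 4 also differed by gene length. The median deviation in log2 CPM, from the mean of the other libraries of the group, of genes of at least 5000 bases minus that of genes under 2000 bases was -0.51 and -0.57 in them, against -0.09 to 0.38 in the other libraries, hepatectomised replicate 2 among them. An offset for gene length changed no call among the 10 genes, and beyond that the part of RNA quality was not tested. All 10 stellate cell markers were lower in depleted livers (summed CPM 13.6 to 51.1, against 199 to 565 in controls), and depleted replicate 4 kept the most. Of 5 hepatocyte genes tested, 0 passed in depleted livers by edgeR and 1, Fgb, was higher after hepatectomy. In whole-liver RNA, fewer cells of a type and less RNA per cell cannot be told apart.

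**Figure D1:**
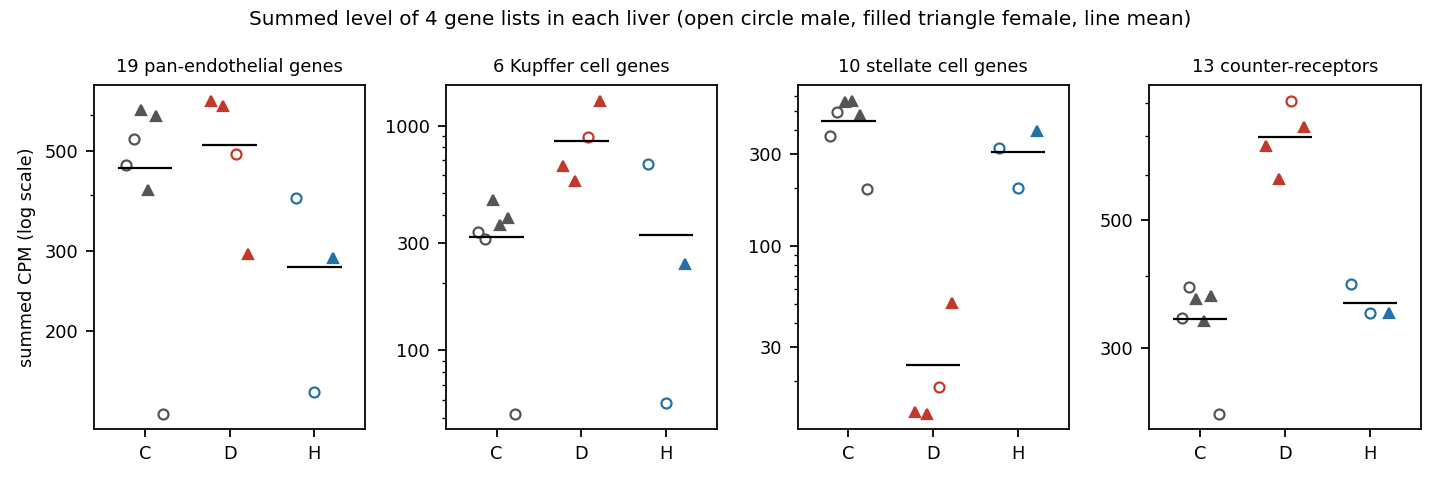
Summed CPM (log scale) of 19 pan-endothelial, 6 Kupffer cell, 10 stellate cell and 13 leukocyte counter-receptor genes in each of 13 livers, with the group mean as a line. Control replicate 6 and hepatectomised replicate 2 hold the lowest pan-endothelial and Kupffer sums of their groups, and the 4 depleted livers lie above all others for the counter-receptors.

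In control liver the 10 genes spanned a wide range of levels per length (CPM per kb of gene length). Plvap, a protein of the diaphragms of fenestrae and caveolae, came first at 20.9 ± 6.63 CPM per kb (SD, n = 6), followed by Cdh5 at 7.66 ± 3.57 and Icam1 at 5.43 ± 0.577. Pecam1 stood at 3.44 ± 1.42 and Vcam1 at 1.399 ± 0.599 CPM per kb. Emcn, Vwf, Selp and Cd34 lay between 0.57 and 0.215 CPM per kb on average, and Sele came last at 0.0307 ± 0.0315. Ranges over livers overlapped between each of these genes and the next in order. In depleted livers the order changed, and Vcam1 (27.2 ± 5.96 CPM per kb, SD, n = 4) and Icam1 (24.3 ± 7.98) stood above Plvap (15.2 ± 1.65). The ranges of Vcam1 and Icam1 overlapped each other in depleted livers, and that of Vcam1 lay wholly above that of Plvap. The Icam1 range (12.9 to 30.3 CPM per kb) overlapped that of Plvap (13.5 to 16.6). After hepatectomy Plvap again led, at 28.6 ± 1.35 CPM per kb (SD, n = 3), above Icam1 at 12.2 ± 3.93.

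**Figure D2:**
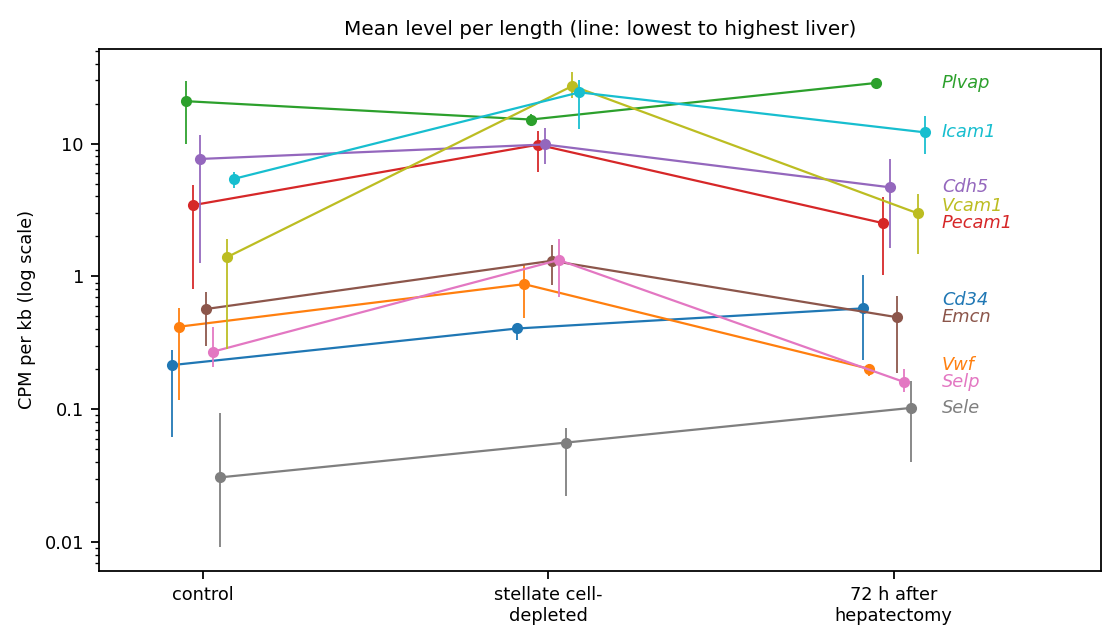
Mean CPM per kb of gene length (log scale) of the 10 genes in control (n = 6), stellate cell-depleted (n = 4) and hepatectomised (n = 3) livers, with vertical lines from the lowest to the highest liver. Vcam1 moves from 1.399 in controls to 27.2 in depleted livers, and Sele stays lowest in each group.

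The first comparison asked how these genes stood in livers that lacked stellate cells. Vcam1, Selp, Icam1, Pecam1, Emcn and Vwf rose, by 19.1-, 5.19-, 4.49-, 2.77-, 2.17- and 1.98-fold, and none of the 10 fell. Cd34, Sele, Cdh5 and Plvap did not pass the test. By the quasi-likelihood test of edgeR with Benjamini-Hochberg adjustment over 13831 genes, 6 of the 10 passed at 0.05, all 6 higher, where 33.9% of all genes tested passed, 18.9% as higher and 15.0% as lower. All 10 had enough counts to be tested. Their median log2 fold change was 1.05, against -0.03 over all genes. CPM ranges of the depleted and control livers did not overlap for 6 of the 10 (Vcam1, Selp, Icam1, Pecam1, Emcn and Cd34), as for 28.4% of all genes. The count of 6 became 3 without depleted replicate 3, when Pecam1, Emcn and Vwf were lost. It was 4 without control replicate 4, depleted replicate 1 or depleted replicate 2, when Emcn and Vwf were lost. It was 8 without control replicate 6 and hepatectomised replicate 2, 7 higher and 1 lower, when Cd34 also passed as higher and Plvap as lower.

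**Figure D3:**
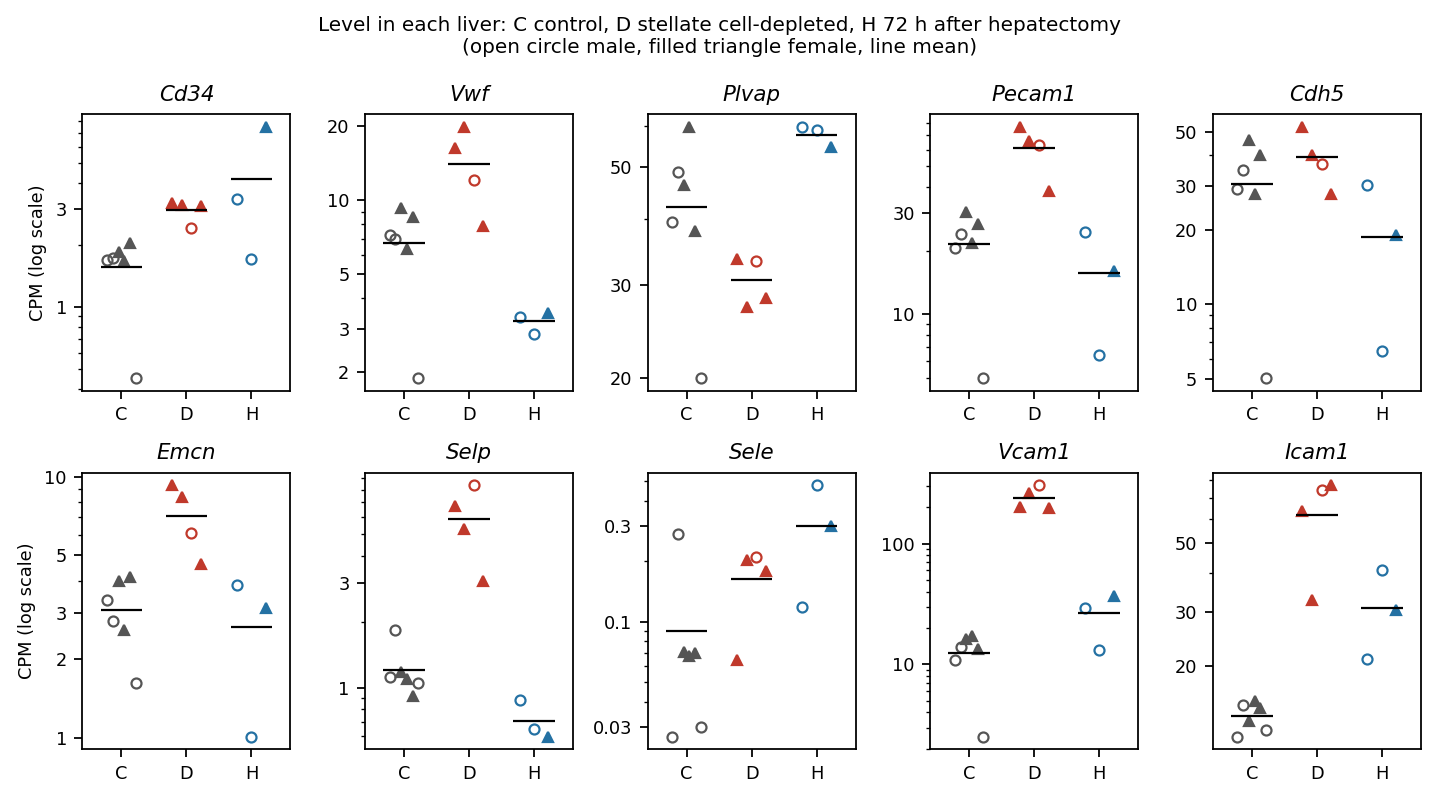
CPM (log scale) of each gene in every liver of the control (C), stellate cell-depleted (D) and hepatectomised (H) groups, open circles male and filled triangles female, with the mean as a line. The 4 depleted livers lie above every other liver for Vcam1 (196 to 306 CPM) and Selp (3.07 to 8.38 CPM), and control replicate 6 is the lowest control for Cd34, Vwf, Plvap, Pecam1, Cdh5, Emcn and Vcam1.

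Of the selectins, Selp (chromosome 1, 164115264 to 164150026, mm10) ranged from 0.912 to 1.83 CPM in controls, with a median of 1.11. Depleted replicates 1 to 4 had 6.73, 5.31, 8.38 and 3.07 CPM. Every depleted liver stood above every control, with replicate 4 the lowest. Its log2 difference was 2.38 ± 0.27 (SE, edgeR adjusted p = 3.86e-05). P-selectin is stored in endothelial Weibel-Palade bodies and in platelet granules, and platelet genes were therefore read beside it. Of 8 platelet and megakaryocyte genes, 3 had counts enough for the test and all 3 (Ppbp, Itga2b and Pf4) were higher in depleted livers. The sum of the 8 was 11.8, 6.72, 25.9 and 26.2 CPM in depleted replicates 1 to 4, against 2.61 to 7.14 CPM in controls. The 3 calls became 2 without depleted replicate 4, 6 of 7 tested without control replicate 6 and hepatectomised replicate 2, and 0 with libraries scaled to pan-endothelial reads. Of the platelet genes too low to test, Gp9, Gp1ba, Gp1bb and Gp6 did not exceed 0.958 CPM in a library, and Gp6 was at 0 in 3 controls. The part of platelets in the Selp result was not tested.

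Sele (chromosome 1, 164048234 to 164057677), the cytokine-induced endothelial selectin, was near the limit of detection. Controls held 1, 11, 3, 3, 3 and 1 counts (replicates 1 to 6) and depleted replicates 1 to 4 held 3, 9, 12 and 8. The groups overlapped. The fitted log2 fold change was 0.94 ± 0.66 (SE), with a 95% interval from -0.49 to 2.37 and an edgeR adjusted p of 0.302. A difference was not detectable at this depth, and the fitted value depends on the prior count.

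Vcam1 (chromosome 3, 116109949 to 116129688), the ligand of alpha4 integrins, showed the largest difference of the 10. It ranged from 2.52 CPM in control replicate 6 to 17.1 CPM in control replicate 4, with a median of 13.8. Depleted livers had between 196 CPM (replicate 4) and 306 CPM (replicate 3), with replicates 1 and 2 in between. The lowest depleted liver stood more than 10-fold above the highest control. On the log2 scale Vcam1 was higher by 4.25 ± 0.42 (SE, edgeR adjusted p = 2.25e-05). Vcam1 alone made up 43.3% to 56.5% of the summed CPM of the 10 genes in depleted livers, against 5.05% to 11.1% in controls. Kupffer cell genes moved beside it. Marco, Adgre1 and Timd4 of the 6 were higher and none passed as lower, and the summed level ran from 570 to 1288 CPM in depleted livers and from 52.2 to 465 in controls. The defining Kupffer gene Clec4f had 0.236, 2.17, 3.44 and 69.5 CPM in depleted replicates 1 to 4, against 20.4 to 165 in controls, with an edgeR adjusted p of 0.087. Without depleted replicate 4, 2 Kupffer genes were called higher and 1 lower, and without control replicate 6 and hepatectomised replicate 2 it was 4 and 1. The part of macrophages in the Vcam1 result was not tested.

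Icam1 (chromosome 9, 21015960 to 21028797), the ligand of the beta2 integrins LFA-1 and Mac-1, was even among controls. It ranged from 11.9 to 15.5 CPM with a median of 14.0, and control replicate 6 lay inside that range. Depleted replicates 1 to 4 had 63.3, 32.7, 74.2 and 77.0 CPM, all above every control, with replicate 2 the lowest. For Icam1 the log2 fold change was 2.17 ± 0.23 (SE, edgeR adjusted p = 2.80e-05). Adjusted p-values of Vcam1, Selp and Icam1 stayed between 3.36e-06 and 0.00102 in the 13 fits that left out 1 library each.

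Of the junction genes, Pecam1 passed and Cdh5 did not, and the difference between them was not tested. Pecam1 (chromosome 11, 106654217 to 106750628) ranged from 4.98 to 30.5 CPM in controls, with a median of 22.8. Depleted replicates 1 to 4 had 76.9, 66.0, 63.2 and 38.3 CPM, and replicate 4 was the lowest yet above every control. Pecam1 was 1.47 ± 0.43 (SE) higher on the log2 scale (edgeR adjusted p = 0.0187), and the adjusted p was 0.111 without depleted replicate 3. Cdh5 (chromosome 8, 104101625 to 104144502), which is restricted to endothelium, ranged from 5.01 to 46.1 CPM in controls and had 52.3, 40.0, 36.9 and 27.8 CPM in depleted replicates 1 to 4. The groups overlapped, and the log2 fold change of Cdh5 was 0.30 ± 0.49 (SE), with a 95% interval from -0.77 to 1.37 and an edgeR adjusted p of 0.679. All 7 lymphocyte genes and all 7 monocyte and neutrophil genes of the marker lists were higher in depleted livers. Their summed levels were 39.2 to 94.5 CPM and 459 to 817 CPM, against 3.55 to 6.01 CPM and 15.6 to 119 CPM in controls. The part of PECAM1-bearing leukocytes in the Pecam1 result was not tested.

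Among the capillary glycoproteins, Emcn (chromosome 3, 137341067 to 137432185), a sialomucin of venous and capillary endothelium, ranged from 1.62 to 4.12 CPM in controls with a median of 3.08. Depleted replicates 1 to 4 had 9.30, 8.36, 6.08 and 4.66 CPM, all above the controls. Its log2 fold change was 1.12 ± 0.35 (SE, edgeR adjusted p = 0.0243). The call was lost without control replicate 4 (adjusted p = 0.0551) and without depleted replicate 1, 2 or 3 (0.0658, 0.0523 and 0.101).

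Vwf (chromosome 6, 125546774 to 125686679), the clotting glycoprotein of large-vessel endothelium, ranged from 1.89 to 9.30 CPM in controls with a median of 7.13. Depleted livers had 16.4, 19.9, 12.1 and 7.86 CPM in replicates 1 to 4, and replicate 4 fell within the control range. Vwf was 0.98 ± 0.34 (SE) higher on the log2 scale (edgeR adjusted p = 0.0404). The 3 platelet and megakaryocyte genes tested, given beside Selp, were also higher in these livers, and their part in the Vwf result was not tested. The Vwf call was lost in 8 of the 13 fits without 1 library, those without control replicate 3, 4 or 5, depleted replicate 1, 2 or 3, or hepatectomised replicate 1 or 3, with adjusted p-values from 0.0508 to 0.147.

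Cd34 (chromosome 1, 194938819 to 194961279), a sialomucin of capillary endothelium and blood progenitors, ranged from 0.45 to 2.04 CPM in controls with a median of 1.71. Depleted replicates 1 to 4 had 3.19, 3.14, 2.41 and 3.10 CPM, above every control. The log2 fold change of Cd34 was 0.75 ± 0.36 (SE), with a 95% interval from -0.03 to 1.53 and an edgeR adjusted p of 0.127. Without control replicate 6 and hepatectomised replicate 2 it was 0.65 with an adjusted p of 0.0368. Of 6 progenitor genes, Ly6a, Flt3 and Gata2 were higher in depleted livers, whereas Kit, Meis1 and Hlf did not pass.

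Plvap (chromosome 8, 71497754 to 71511769) was the only one of the 10 with a negative fitted value. It ranged from 19.96 to 59.7 CPM in controls, and depleted replicates 1 to 4 had 33.5, 27.2, 33.3 and 28.3 CPM. Control replicate 6 alone lay below the depleted livers. The log2 fold change of Plvap was -0.48 ± 0.23 (SE, edgeR adjusted p = 0.122), and it passed without control replicate 6 (-0.60, adjusted p = 0.00739).

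**Figure D4:**
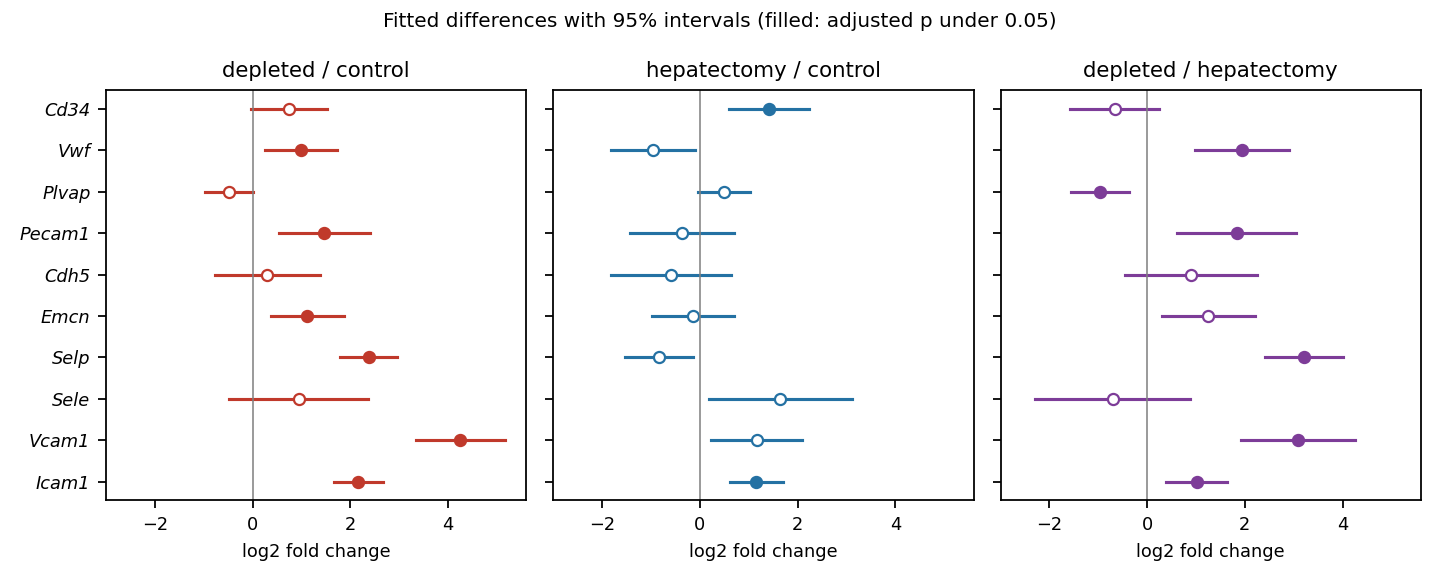
Fitted log2 fold changes with 95% intervals for the 10 genes in the 3 comparisons, filled where the edgeR adjusted p is under 0.05. Vcam1, Selp and Icam1 have the highest values in depleted against control livers, at 4.25, 2.38 and 2.17, and the intervals of Cd34, Cdh5, Sele and Plvap include 0 in that comparison.

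Other genes of the vessel wall were read from lists, which were also drawn up with earlier results known. Of 19 pan-endothelial genes, 7 were higher in depleted livers and 0 lower, and 12 did not pass. It was 10 and 0 without depleted replicate 4, and 8 and 1 without control replicate 6 and hepatectomised replicate 2. None passed with libraries scaled to these same genes' reads, but that scaling evens out their sum by design, so it cannot test this list. Cldn5, the tight junction protein of vessels, Robo4 and Mmrn2 had the largest rises, with log2 fold changes of 1.38, 1.37 and 1.28, and the list median was 0.74 against -0.03 over all genes. Of 10 sinusoidal endothelial genes, Dnase1l3 was higher (1.34) and Gata4 was lower (-0.996). Lyve1 (2.85-fold, edgeR adjusted p = 0.0624) and Mrc1 (2.26-fold, adjusted p = 0.0581) lay near the threshold, and Stab1, Stab2, Clec4g and the other sinusoidal genes did not pass either. The 1 higher and 1 lower became 3 and 1 with DESeq2 or without depleted replicate 4, and 3 and 2 without control replicate 6 and hepatectomised replicate 2. They became 0 and 0 with libraries scaled to pan-endothelial reads. The parts of lost stellate cells and of macrophages in the results of this list were not tested. Of 13 further adhesion and surface genes, 11 were tested, 4 were higher (Cd93, Thbd, Icam2 and Mcam, at 1.85, 1.22, 1.196 and 0.75) and 1, Jam3, was lower (-0.88). With libraries scaled to pan-endothelial reads 1 of the 11 was higher and 0 lower. Aoc3 and Madcam1 were too low to test.

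To set the 10 genes against other endothelial RNA, reads were also counted per 1000 reads of the 19 pan-endothelial genes. Aqp1, Ptprb, Eng and Kdr weighed most in that sum, with control means of 115.9, 93.6, 65.5 and 57.2 CPM of 459. Their log2 fold changes in depleted livers were -0.26, -0.21, -0.43 and -0.15, none passing, whereas the list median was 0.74. On that scale Vcam1 ran from 19.2 to 41.7 in controls and was 310, 419, 619 and 660 in depleted replicates 1 to 4. Cd34 ran from 2.98 to 4.06 in controls and was between 4.88 and 10.4 in the depleted livers, with replicate 4 the highest. Pecam1 ran from 38.0 to 52.7 and then from 105 to 129, and Vwf from 13.2 to 15.6 and then from 24.4 to 31.8. These 4 genes and Selp did not overlap between the groups, 5 of 10, as for 12.9% of all genes. In a fit with libraries scaled to pan-endothelial reads, Vcam1 (4.21), Icam1 (2.08) and Selp (2.12) still passed, and Pecam1 (1.38), Emcn (0.93) and Vwf (0.88) did not (edgeR adjusted p = 0.0806, 0.484 and 0.499). In that fit 1695 of 13831 genes passed in either direction.

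The leukocyte counter-receptors of the adhesion genes were read next. Of 13 such genes, 10 were higher in depleted livers, 0 lower and 3 did not pass, with a list median of 3.39. The same number passed without control replicate 6 and hepatectomised replicate 2. Medians of the lymphocyte markers and of the monocyte and neutrophil markers were 4.38 and 6.03. The part of leukocyte number in the counter-receptor results was not tested. Selplg, which encodes the selectin ligand PSGL-1, rose by a log2 fold change of 3.35. Itga4, the alpha4 chain that binds VCAM1, rose by 3.88 and Itgb7, its leukocyte partner chain, by 4.22. The ICAM1-binding chains Itgb2, Itgam, Itgax and Itgal rose by 3.39, 3.50, 3.74 and 2.03. Spn and Cd44, sialylated glycoproteins that can bind E-selectin, rose by 4.28 and 2.39. Itgb1, the widely expressed partner of alpha4, was at -0.10, Itga9 at 0.43 and Glg1, an E-selectin ligand of the Golgi, at 0.22.

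**Figure D5:**
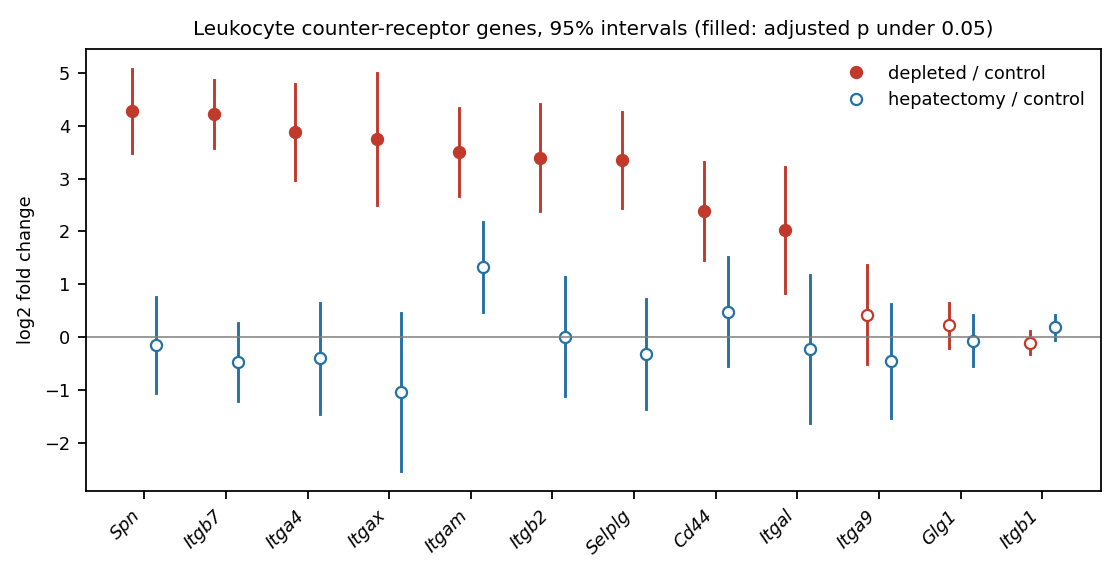
Log2 fold changes with 95% intervals of 12 leukocyte counter-receptor genes in depleted (red) and hepatectomised (blue) against control livers, filled where the edgeR adjusted p is under 0.05. Of these, 9 pass in depleted livers, from Spn at 4.28 to Itgal at 2.03, and none passes after hepatectomy.

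Genes of the cytokines that induce the adhesion molecules moved too. Of 16 tested inducers, receptors and NF-kB genes, 14 were higher in depleted livers and 0 lower, and 6 were higher with libraries scaled to pan-endothelial reads. Ifng, Tnf and Tnfaip3 had the largest fitted values. Ifng held 0 to 3 counts in each control and 29, 15, 134 and 145 counts in depleted replicates 1 to 4, so that its fitted log2 fold change (6.12) depends on the prior count. Tnf and Tnfaip3 rose by 3.77 and 3.05. Tnf was 2.12, 1.57, 5.19 and 6.95 CPM in depleted replicates 1 to 4, against 0.06 to 0.491 in controls. Il1b (2.62) and the NF-kB subunit genes Relb and Nfkb2 (2.19 and 1.44) also rose, whereas Rela was at 0.03.

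Livers at 72 h after hepatectomy were next set against the same controls, which both comparisons share. Cd34 and Icam1 rose, by 2.67- and 2.23-fold, and none of the 10 fell. By edgeR's quasi-likelihood test 2 of the 10 passed, both higher, where 8.42% of all genes passed, 6.06% as higher and 2.36% as lower. The median log2 fold change of the 10 was 0.18, against -0.02 over all genes. CPM ranges did not overlap for 2 of the 10, Icam1 and Selp, as for 13.7% of all genes. With the replicate number as a block, 1 of the 10 passed, Vwf, and it was lower (-1.34, edgeR adjusted p = 0.0239). The labels do not pair same-numbered livers, which share sex in these 2 groups. Once group and sex were removed, the deviations of same-numbered livers correlated across genes at r = -0.19 to 0.084. The block was fitted over all 13 libraries. With library size as the sole scaling, Icam1 passed as higher and Selp as lower (-1.05, adjusted p = 0.043). None of the 10 passed without hepatectomised replicate 3, and 1 passed without control replicate 3, 4 or 5, depleted replicate 1, or hepatectomised replicate 1 or 2.

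Icam1 was 21.1, 41.0 and 30.5 CPM in hepatectomised replicates 1 to 3, all above the highest control at 15.5. Of 7 monocyte and neutrophil genes, Ly6g, S100a8 and S100a9 were higher after hepatectomy (2 of the 7 with the replicate block), and the sum of the 7 was 189, 50.8 and 73.8 CPM against 15.6 to 119 in controls. Ly6g was at 0 CPM in every control and at 0.025 to 0.235 CPM after hepatectomy. It reached the test through its level in depleted livers (1.14 to 2.04 CPM), and its fitted value depends on the prior count. The part of monocytes and neutrophils in the Icam1 result was not tested. Icam1 was highest in hepatectomised replicate 2. Its log2 fold change was 1.16 ± 0.25 (SE, edgeR adjusted p = 0.0147). With the replicate block it was 1.21 with an adjusted p of 0.0647. The call was also lost without hepatectomised replicate 2 (0.90, adjusted p = 0.0881) and without hepatectomised replicate 3 (adjusted p = 0.0508).

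Cd34 was 3.35, 1.71 and 7.51 CPM in hepatectomised replicates 1 to 3. Replicate 2 lay within the control range and replicate 3 stood far above the others. The log2 fold change was 1.42 ± 0.38 (SE, edgeR adjusted p = 0.0359), and 1.09 with an adjusted p of 0.15 with the replicate block. Without hepatectomised replicate 3 it was 0.95 with an adjusted p of 0.245, and the call was also lost without control replicate 3, 4 or 5, depleted replicate 1 or hepatectomised replicate 1 (adjusted p from 0.0527 to 0.0929). Mesothelial markers moved with the same library. Msln was 4.35, 2.89 and 17.5 CPM and Upk3b 3.29, 2.33 and 10.5 CPM in hepatectomised replicates 1 to 3, against at most 0.914 and 1.06 in controls. Of the 6 portal fibroblast and mesothelial genes, 5 were tested and Msln, Upk3b and Pi16 were higher, none of them with the replicate block. The sum of the 6 was 12.6, 9.77 and 38.0 CPM, against 3.99 to 13.05 in controls. The part of mesothelium in the Cd34 result was not tested.

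The other 8 genes did not pass. Vcam1 was 29.4, 13.2 and 36.9 CPM in hepatectomised replicates 1 to 3, so that replicate 2 overlapped the controls, with a log2 fold change of 1.16 ± 0.43 (SE) and an edgeR adjusted p of 0.12. Without control replicate 6 and hepatectomised replicate 2, Vcam1 passed (1.21, adjusted p = 0.0168) and Icam1 did not (0.88, adjusted p = 0.118). Selp was 0.882, 0.646 and 0.599 CPM, each below every control, at -0.83 ± 0.32 (SE, adjusted p = 0.126). Vwf was 3.35, 2.86 and 3.49 CPM, below every control but replicate 6, at -0.96 ± 0.40 (SE, adjusted p = 0.162), and it passed without that replicate (-1.19, adjusted p = 0.0286).

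Sele held 4, 17 and 12 counts after hepatectomy, at 1.65 ± 0.68 (SE, edgeR adjusted p = 0.156). Plvap was 59.6, 58.9 and 54.6 CPM, at the top of the control range, with a log2 fold change of 0.49 and a 95% interval from -0.04 to 1.02. Pecam1, Cdh5 and Emcn were at -0.36, -0.60 and -0.14, each with a 95% interval that held 0. Without hepatectomised replicate 1, Pecam1 was at -0.99 and Cdh5 at -1.34, and without hepatectomised replicate 2 they were at -0.03 and -0.23, none of these passing. In all 3 of these, hepatectomised replicate 2 was the lowest of its group, at 6.40, 6.48 and 1.01 CPM.

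Per 1000 pan-endothelial reads, Cd34 was 8.52, 11.7 and 25.8 and Vcam1 74.7, 90.1 and 127 in hepatectomised replicates 1 to 3, all above every control. These were the 2 of 10 genes whose ranges did not overlap on that scale, as for 5.70% of all genes. In the fit with libraries scaled in this way, Cd34, Icam1, Vcam1 and Sele passed as higher, at 2.13, 1.84, 1.90 and 2.73. In that fit 767 of 13831 genes passed in either direction, and the median over all genes was 0.50. Sele rested on 4, 17 and 12 counts in hepatectomised replicates 1 to 3. On that scale the ranges of Sele and Icam1 overlapped those of controls.

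Of 19 pan-endothelial genes, 0 passed after hepatectomy by edgeR, 4 had an unadjusted p under 0.05 and DESeq2 called 1, lower. The list median was -0.58. None of the 10 sinusoidal genes passed by edgeR or DESeq2, and 2 had an unadjusted p under 0.05. With the replicate block 1 pan-endothelial and 1 sinusoidal gene passed, both lower. Among the further adhesion and surface genes Thbd, which encodes thrombomodulin, was the single call, at a log2 fold change of 2.13. None of the 13 counter-receptors passed by edgeR, 2 had an unadjusted p under 0.05, and DESeq2 called 1, higher. Itgam had the highest value (1.33, edgeR adjusted p = 0.0569), and Selplg, Itga4 and Itgb2 were at -0.32, -0.40 and 0.01. Of the 16 inducers tested, 4 were higher, Il1r1 (2.65), Tnfaip3 (1.36), Tnfrsf1a (0.79) and Tnfrsf1b (0.69). With the replicate block 1 of the 16 passed. Tnf was at -1.13 without passing, and Ifng held at most 1 count in a hepatectomised library.

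A direct comparison of depleted with hepatectomised livers tests where the responses differed. Selp, Vcam1, Vwf, Pecam1 and Icam1 were higher in depleted livers, at log2 fold changes of 3.21 ± 0.36, 3.09 ± 0.53, 1.94 ± 0.45, 1.83 ± 0.56 and 1.01 ± 0.29 (SE). Plvap was lower, at -0.97 ± 0.27 (SE, edgeR adjusted p = 0.0224). These were 6 of 10, 5 higher and 1 lower, against 23.4% of all genes tested, 13.3% higher and 10.1% lower. Ranges did not overlap for 6 of 10, as for 34.0% of all genes (29.2% per 1000 pan-endothelial reads). With scaling to library size alone 6 were higher and 0 lower, and Plvap did not pass (-0.65, adjusted p = 0.138). With libraries scaled to pan-endothelial reads 2 passed, Selp (2.38, adjusted p = 0.0371) and Vcam1 (2.31, adjusted p = 0.0179), both higher. In that fit 1200 of 13831 genes passed in either direction. In the main fit the edgeR adjusted p was 1.28e-04 for Selp and 0.00177 for Vcam1.

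Selp and Vcam1 passed in all 13 fits without 1 library, with adjusted p-values up to 0.00171 and 0.0141, and the other calls did not. Without hepatectomised replicate 3, 3 of the 10 genes passed, and 4 without hepatectomised replicate 2 or depleted replicate 3. Vwf was lost without hepatectomised replicate 3 (adjusted p = 0.0509), Plvap without hepatectomised replicate 2 (0.0544), and Icam1 without depleted replicate 3 (0.139) or hepatectomised replicate 1 (0.0713) or 3 (0.0838). Pecam1 was lost without any of depleted replicates 1 to 3 (0.0626, 0.0524 and 0.152) or without hepatectomised replicate 2 (0.0909) or 3 (0.127). Emcn, at 1.25 ± 0.44 (SE, adjusted p = 0.0564), passed without control replicate 6, depleted replicate 4 or hepatectomised replicate 1. Cd34, Sele and Cdh5 did not pass, at -0.67, -0.71 and 0.90. Of the 13 counter-receptors 10 were higher in depleted than in hepatectomised livers and 0 lower, and 8 of the 16 inducers were higher (2 higher and 1 lower with libraries scaled to pan-endothelial reads).

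Sex was a term of the model, and none of the 10 genes passed for male against female livers by edgeR. Cd34 had the smallest p of them (-0.74 ± 0.32 SE, unadjusted p = 0.0379, adjusted p = 0.383).

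For each of the 10 genes, genes with a mean log2 CPM of at least 1, predicted genes left out (10548, or 10549 for Selp and Sele) were searched for those whose centred log2 CPM lay closest over the 13 libraries, by root mean square difference. Pecam1 (SD of 1.18 over libraries) was closest to Adgre5, at 0.215. Vwf (SD of 0.99) was closest to Mmrn2, the pan-endothelial matrix protein, at 0.217. Cdh5 (SD of 1.03) was closest to Itga9 at 0.229, Emcn to Cd55 at 0.251 and Plvap to Sgms1 at 0.239. Vcam1 (SD of 2.15) was closest to Rgs1, at 0.41. Icam1 was closest to Snx10 at 0.324, Cd34 to Nid1, which encodes a basement membrane protein, at 0.429, and Selp to Cdk14 at 0.434. For Sele, which itself lies below that level, the closest was B4galt1 at 0.474. These distances are descriptions of 13 livers and carry no test.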

How the data were processed

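Total liver RNA (500 ng per library) was made into stranded mRNA libraries, per the labels' protocols. The authors deposited raw read counts per gene for 13 libraries, with gene lengths. STAR 2.7.1a, SAMtools 1.15.1, featureCounts 1.6.4 and mm10 are named, per the submitters' processing notes, with no role; strand and multi-mapping settings are not given in the sources used here. Symbols came from a gene name table that matched 21741 of 22048 IDs; the 10 members overlap the same genes in GENCODE M21.

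Counts were tested with edgeR 4.0.16 in R 4.3.3 (filterByExpr, TMM, robust glmQLFit, glmQLFTest) with group and sex over all libraries, adjusted over 13831 genes, two-sided; the SE is the log2 fold change over the root of F. The floor of 3 counts covers counting error only. DESeq2 1.42.0, other scalings, filters and left-out libraries were alternatives. Within groups no 2 libraries agreed within sampling noise (lowest median chi-square 4.60, where 0.455 is chance), so each counted once.

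Members and lists were chosen with earlier results of these data known. Named genes were the 10 members, the counter-receptors, the 3 largest passing rises and falls of other lists, and marker genes beside a member's result; Il1b, Relb, Nfkb2, Rela, Mcam and genes named as not passing were added after their values were seen. Some genes under this rule are not reported here, though list counts and sums include them; of the genes nearest to each member, the closest is given. Same-numbered hepatectomised and control livers are of the same sex, and their deviations from group means correlated across genes at r = 0.107 to 0.523, so the replicate block is given for that comparison; once sex was also removed, r was -0.19 to 0.0837. For depleted and control livers r was -0.34 to 0.0729.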

Additional observations from a re-analysis of the deposited data

Results flagged for a closer look

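Within-group outliers were looked for among the 10 genes in 20 groups of control or depleted libraries, and 4 passed Dixon's critical value, where chance gives about 1. Cd34 in control replicate 6 was 0.45 CPM, with a gap to the nearest control of 0.765 of the group's range. Cd34 in depleted replicate 3, the only male of that group, was 2.41 CPM, with a gap of 0.877 of the range. Selp in control replicate 2 was 1.83 CPM and Sele in the same liver 0.272 CPM (11 counts), the highest controls, with gaps of 0.707 and 0.82.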

How the results depend on the processing

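Vcam1, Selp and Icam1 passed as higher in depleted against control livers under every alternative run. Scaling to pan-endothelial reads gave, for depleted against control livers, 1695 of all genes and 3 of the 10, for hepatectomised against control livers 767 and 4, and for depleted against hepatectomised livers 1200 and 2. Medians over all genes then were -0.21, 0.50 and -0.74, and 0.08, -0.24 and 0.27 with library size alone. For hepatectomised against control livers the count of all genes was 632 with the replicate block, 2192 with library size alone (626 higher, 1566 lower, against 838 and 326), 1939 with DESeq2 and 412 without control replicate 6 and hepatectomised replicate 2 together, a setting chosen after seeing the data, as was a gene length offset. The count of the 10 genes was 1 without the sex term, 1 with the replicate block and 1 in a fit of the 2 groups. Library size alone split the genes passing into 2884 higher and 1471 lower for depleted against control livers (2614 and 2078 in the main setting), and 3102 and 610 for depleted against hepatectomised livers (1837 and 1399), where a fit of the 2 groups gave 2105. Leaving out 1 library gave 2960 to 4928, 483 to 1458 and 1709 to 3850 of all genes in the 3 comparisons, and 3 to 7, 0 to 3 and 3 to 7 of the 10. After hepatectomy, scaling to pan-endothelial reads turned Cdh5, Emcn and Pecam1 to 0.039, 0.32 and 0.25, and Emcn was 0.075 without both libraries and ran from -0.67 to 0.21 when 1 library was left out, none of these passing. With the replicate block, Emcn had an edgeR adjusted p of 0.0503 and Plvap of 0.0229 in depleted against control livers, which the labels do not pair. The causes were not tested. Depth limits Sele, at 1 to 17 counts per library.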
